A study of Mus musculus with 32 samples.

Results

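A set of 33 general macrophage genes was followed through RNA of sorted CD4+ T cells. The set was a list of lineage, receptor, complement and lysosome genes, matched to the arrays by the gene symbol of the platform annotation. On each of the 2 array platforms 32 of the 33 were measured, out of 17097 genes at 72 h and 22180 genes at 48 h, and Spp1 was not analysed here. The study cultured T cells on macrophages, in normal or amino acid poor medium, and sorted the T cells after 48 h or 72 h. In all there were 32 arrays.

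All cultures held CD4+ T cells, taken out of lymph nodes (axial and cervical) of Balb/c mice with the DO11.10 T cell receptor transgene, which recognises an ovalbumin (OVA) peptide. All held peritoneal macrophages taken 3 days after thioglycollate, an irritant that draws macrophages into the peritoneal cavity. At 72 h the groups were OVA on macrophages pretreated with IL-4 and IL-10 (each at 10 ng/mL, washed away before the T cells), OVA on untreated macrophages, and no OVA, with 3 arrays each. At 48 h, antigen was given on pretreated macrophages, in a medium short of 1 amino acid (arginine, leucine or lysine, kept at 1% of its usual amount), or in full medium. Cultures without antigen at 48 h were in low arginine (2 arrays), low leucine or low lysine medium, and the other groups had 3 arrays. No 48 h group without antigen in full medium was analysed here. Sorting took viable singlet cells that bound anti-CD4 antibody. The labels do not state that replicates are independent cultures or mice, so p-values measure only the spread between these samples, which may be technical.

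Macrophages are phagocytes that engulf particles, microbes and dead cells and break them down in lysosomes. They recognise their cargo through Fc receptors, scavenger receptors, Toll-like receptors and complement C1q, which they also make. Helper T cells make little or none of many of these proteins, among them lysozyme, C1q and the CSF1 receptor. Which cells the RNA described here came from was not tested. In bulk samples, fewer cells of a type and less RNA per cell cannot be told apart.

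Values are RMA log2 levels per probe set, so a difference of 1 is a doubling. Taken over all its probe sets, an array had a median of 3.87 to 4.04 at 72 h, against 5.45 to 5.75 on the 48 h platform. The platforms were never combined. T cell identity genes, such as Cd3e, Cd4 and Zap70, averaged 9.12 to 10.62 on the arrays of 72 h, and 9.65 to 10.57 on those of 48 h. The median level over the 17097 genes, as opposed to all probe sets, differed by -0.51 between antigen and no-antigen arrays at 72 h, while the median of the genes' fold changes was 0.02. A gene was called when its adjusted p (limma, Benjamini-Hochberg over all genes) was under 0.05.

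Macrophage genes were much lower at 72 h in the T cell sorts from cultures with antigen. Of the 32 measured genes, 24 fell and 0 rose, where 17.4% of all genes were called lower and 20.7% higher. Their median log2 fold change was -2.51, against 0.02 over all genes. The mean over the 32 genes was 4.49, 4.46 and 4.43 on the antigen arrays, against 6.05, 7.92 and 7.41 on the no-antigen arrays. The groups did not overlap, and the antigen arrays lay within a far narrower range. Among those that fell were Cd14, Lgmn, Apoe, Lyz2, Ctsl and Gpnmb. With antigen many members lay at or near the array's median over all probe sets, where a probe set may no longer follow the transcript, so the falls may be understated and their sizes are not ranked. The 8 genes without a call were Csf1r, Adgre1, Itgam, Aif1, Fcgr1, Tlr2, Marco and Ctss.

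**Figure D1:**
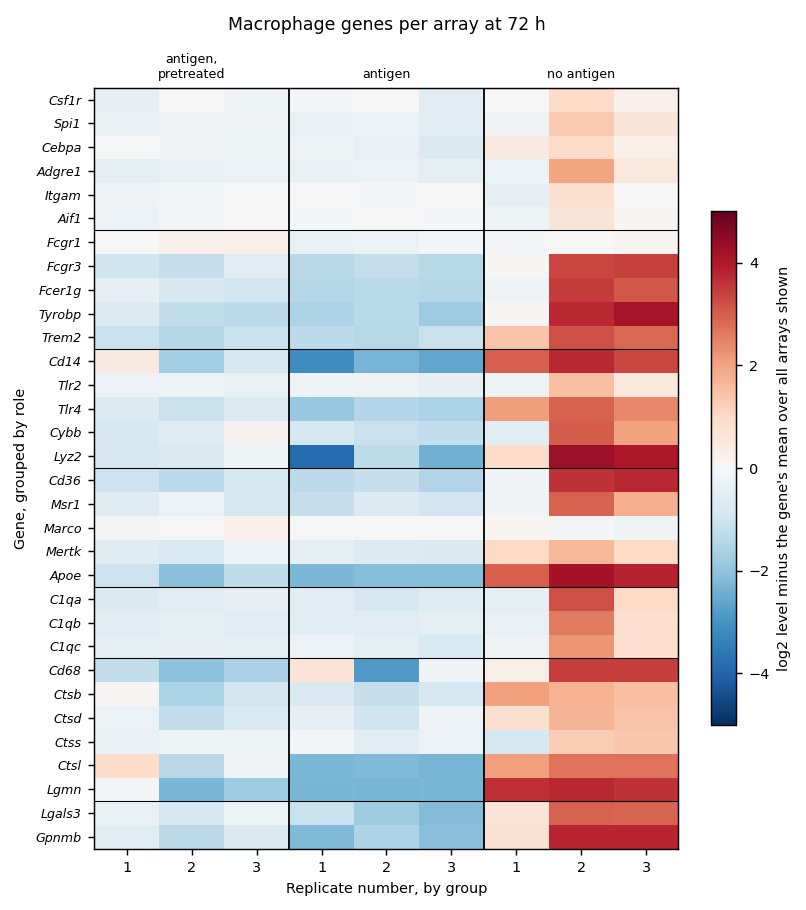
Level of 32 macrophage genes (rows, grouped by role) on each of the 9 arrays at 72 h (columns, by group and replicate), as the log2 level minus the gene's mean over these arrays. Red marks levels above that mean; most genes are red on no-antigen replicates 2 and 3 and paler on replicate 1.

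Of the 6 lysosome genes 5 fell with antigen at 72 h. Cathepsin L (Ctsl), a cysteine protease of the lysosome, had log2 levels of 7.86, 7.90 and 7.79 with antigen, against 12.16, 12.82 and 12.85 without. It fell by 4.76 (SE 0.44, adjusted p = 8.02e-06, limma), and the groups lay far apart. Legumain (Lgmn), an asparaginyl endopeptidase that processes cathepsins, had 4.50, 4.47 and 4.52 with antigen, against 10.43, 10.57 and 10.42 without. Its fall of 5.98 (SE 0.44, adjusted p = 1.61e-06, limma) came with almost no spread within either group.

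Cathepsins B and D also fell, while cathepsin S did not pass the test. Ctsb had 9.72, 9.30 and 9.60 with antigen, against 12.53, 12.22 and 12.01 without, a log2 fold change of -2.71. Ctsd, an aspartic protease, had 9.16, 8.57 and 9.40, against 10.38, 11.29 and 11.01, a change of -1.85. Ctss, which trims the invariant chain of MHC class II, had 9.75, 9.26 and 9.50 with antigen, against 8.94, 11.02 and 11.14 without (log2 fold change -0.86, adjusted p = 0.167, limma). Its groups overlapped because no-antigen replicate 1 was lower than every antigen array. Cd68, a glycoprotein of late endosomes and lysosomes, was the least even of the group, with 7.21, 3.75 and 6.41 against 6.84, 10.02 and 10.02. It was called lower (-3.17, adjusted p = 0.0185, limma) although its groups overlapped.

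Ctsl, Cd68, Ctsd and Lgmn were among the members called in the most comparisons, so their promoters are shown. Each runs from 250 bases before to 50 after the transcription start, 5′ to 3′ on the gene's strand, which is the minus strand for all of these genes (RefSeq, build GRCm38.p6). Capitals mark GAGGAA, a core recognised by PU.1, the macrophage factor encoded by Spi1, or its reverse complement TTCCTC, and CACGTG, an E-box bound by the lysosomal regulator TFEB and by other factors. The E-box was added after the values were seen, and the 4 genes were chosen among ties by their number of matches.
Ctsl, chr13:64370471-64370770: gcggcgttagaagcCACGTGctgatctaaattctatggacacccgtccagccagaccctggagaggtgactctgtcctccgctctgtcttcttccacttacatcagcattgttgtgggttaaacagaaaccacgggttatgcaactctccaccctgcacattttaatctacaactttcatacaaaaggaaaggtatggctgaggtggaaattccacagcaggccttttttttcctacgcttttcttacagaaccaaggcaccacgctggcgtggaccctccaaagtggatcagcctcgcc
Cd68, chr11:69666121-69666420: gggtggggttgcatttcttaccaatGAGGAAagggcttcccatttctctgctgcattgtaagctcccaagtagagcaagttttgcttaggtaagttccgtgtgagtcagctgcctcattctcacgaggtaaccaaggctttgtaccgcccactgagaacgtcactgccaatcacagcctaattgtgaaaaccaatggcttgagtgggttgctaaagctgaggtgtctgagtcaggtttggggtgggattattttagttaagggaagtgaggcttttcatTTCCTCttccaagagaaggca
Ctsd, chr7:142387778-142388077: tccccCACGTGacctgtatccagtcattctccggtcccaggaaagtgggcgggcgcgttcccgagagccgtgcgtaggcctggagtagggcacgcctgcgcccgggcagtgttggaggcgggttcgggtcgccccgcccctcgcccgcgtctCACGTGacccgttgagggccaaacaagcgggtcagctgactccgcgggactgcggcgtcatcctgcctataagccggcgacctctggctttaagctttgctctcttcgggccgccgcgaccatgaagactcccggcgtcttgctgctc
Lgmn, chr12:102439043-102439342: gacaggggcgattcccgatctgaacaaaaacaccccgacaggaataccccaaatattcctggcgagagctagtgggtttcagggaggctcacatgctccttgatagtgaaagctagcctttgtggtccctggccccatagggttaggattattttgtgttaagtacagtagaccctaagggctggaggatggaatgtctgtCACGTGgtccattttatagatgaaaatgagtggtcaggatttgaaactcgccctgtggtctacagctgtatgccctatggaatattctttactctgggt
Cd68 held 2 PU.1 cores and no E-box, Ctsd 2 E-boxes, and Ctsl and the shown one of 2 listed Lgmn promoters 1 E-box each. RefSeq promoters were used for 23 of the members, with 27 promoters in all. Member promoters on 1 chromosome were left out, an exclusion not made for the set of all promoters. GAGGAA on either strand was in 14 of these 27 (51.9%), against 28.3% of all 32851 promoters of the same length. CACGTG was in 3 of the 27 (11.1%), against 7.15% of all. A match describes letters in this window and is not a binding site.

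Among the innate sensing and killing genes, 4 of 5 fell at 72 h. Cd14, the co-receptor that hands lipopolysaccharide to TLR4, had 3.63, 4.43 and 4.14 with antigen, against 9.74, 10.50 and 10.09 without. Its change of -6.04 (SE 0.46, adjusted p = 2.0e-06, limma) separated the groups by far more than their spread. Tlr4, the receptor that signals for lipopolysaccharide, had 2.97, 3.40 and 3.28 with antigen, against 6.94, 7.82 and 7.28 without, a change of -4.13. Lyz2, the lysozyme of macrophages and granulocytes, had 2.95, 5.51 and 4.38 with antigen, against 7.68, 11.11 and 10.83 without. It fell by 5.59 (SE 0.83, adjusted p = 0.000246, limma), with a wide spread in both groups. Cybb, the catalytic subunit of the phagocyte NADPH oxidase, had 3.40, 3.18 and 3.06 with antigen, against 3.71, 7.31 and 6.28 without, a change of -2.55. Tlr2, which senses bacterial lipoproteins, was 3.71, 3.73 and 3.57 with antigen, against 3.73, 5.47 and 4.51 without, and its groups overlapped (-0.90, adjusted p = 0.0505, limma).

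Among Fc receptors and their adaptors 4 of 5 fell. Fcgr3, a low-affinity IgG receptor, Fcer1g, the signalling gamma chain it needs, Tyrobp (DAP12), the adaptor of TREM2, and Trem2, a lipid receptor, had log2 fold changes between -4.21 and -3.55. For Tyrobp the arrays gave 3.90, 4.12 and 3.63 with antigen, against 5.50, 9.23 and 9.56 without. Fcgr1, the high-affinity IgG receptor, stayed near the array median everywhere, at 3.55, 3.58 and 3.82 with antigen and 3.82, 3.89 and 4.01 without (-0.26, adjusted p = 0.159, limma).

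In the scavenger and lipid group 4 of 5 fell, Apoe, Cd36, Msr1 and Mertk. Apolipoprotein E (Apoe), which carries cholesterol out of macrophages, had 3.55, 3.66 and 3.67 with antigen, against 8.79, 9.95 and 9.65 without, a fall of 5.84 (SE 0.33, adjusted p = 3.37e-07, limma). Cd36 and Msr1 take up oxidised lipoproteins, and their changes were -3.73 and -2.46. Mertk, a receptor for dying cells, changed by -1.83. Marco, another scavenger receptor, was at 2.96, 2.96 and 2.95 with antigen, against 3.06, 2.90 and 2.76 without, below every array's median over all probe sets. The change of Marco was 0.05 (adjusted p = 0.740, limma).

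C1qa, C1qb and C1qc encode the chains of C1q, which starts the classical complement pathway, and all 3 were called lower. Their changes, -1.88, -1.57 and -1.43, came mostly through no-antigen replicates 2 and 3. C1qa had 3.33, 3.02 and 3.24 with antigen, against 3.35, 7.07 and 4.82 without. On no-antigen replicate 1 it was only just above the antigen arrays, and its adjusted p was 0.0458 (limma). Without no-antigen replicate 2 the change of C1qa was -0.89 and the call was lost, as it was without any other single array of these groups except no-antigen replicate 1. The call was also lost with quantile normalization (-1.73), with the ID run as a block (-1.86), with the mean of each gene's probe sets and with only the compared groups in the fit (-1.88 in both).

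Of the lineage genes 2 of 6 were called at 72 h. Csf1r, the receptor for the growth factor that macrophages live on, had 4.03, 4.10 and 3.58 with antigen, against 4.12, 5.07 and 4.38 without (-0.62, SE 0.24, adjusted p = 0.0666, limma). Its groups did not overlap, but lay close. Adgre1, an adhesion receptor that is a standard surface marker of macrophages, had 3.36, 3.38 and 3.19 with antigen, against 3.38, 5.65 and 4.21 without. Spi1 (PU.1) and Cebpa, transcription factors of the myeloid lineage, were called lower, by -0.97 and -1.0. Itgam (CD11b) and Aif1 (IBA1) changed by -0.21 and -0.25 and were not called. When each array was centred on its median over genes, Itgam, Aif1 and Fcgr1 turned positive, and Marco, positive already, was called higher.

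Lgals3 and Gpnmb, abundant in lipid-laden macrophages, both fell. Galectin-3 (Lgals3) had 8.29, 7.65 and 7.26 with antigen, against 10.04, 12.35 and 12.31 without, a change of -3.83 (SE 0.52, adjusted p = 0.000133, limma). Gpnmb, a membrane glycoprotein of lysosomes and melanosomes, had 4.18, 4.86 and 4.29, against 7.13, 10.20 and 10.20, a change of -4.73. For both genes the groups lay apart. For 8 members several probe sets were present, 22 in all, and 21 of these had a lower mean with antigen. The exception was the second probe set of Trem2, at 3.28 with and 3.26 without antigen, and the second of Ctsl changed by only -0.04.

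Other genes of macrophages, not on the list, moved the same way in part. Of 20 further lysosome genes 14 fell, such as Ctsh (-3.16) and Grn (-2.53), and 1 rose (Ctsc, 0.63). Of 22 further phagocyte genes 10 fell, such as Mpeg1 (-3.42) and Clec4d (-2.78), and 1 rose (Ncf4, 1.26). Ctsc and Ncf4 were singled out after their values were seen. Markers of mesothelial and stromal cells, which line the peritoneum, fell in 18 of 18 cases, and their median change was -5.46. Over all genes 17.4% were called lower and 20.7% higher. The lists, this one included, were chosen with earlier results of these data known, so these counts describe the arrays and are no independent test. The mean level of the mesothelial and stromal markers ranged between 4.05 and 4.36 on the antigen arrays and between 9.37 and 9.53 on the no-antigen arrays. Of 13 T cell identity genes 10 were called higher and 0 lower, with means between 10.03 and 10.57 with antigen and between 9.12 and 9.41 without. The part of these differences in the macrophage result was not tested.

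The no-antigen arrays at 72 h did not agree on the macrophage genes. Replicate 1 was the lowest of the 3 for 27 of 32 members, and it was more than 2 log2 units below the mean of replicates 2 and 3 for 13 of them. Over all genes, 52 of 17097 were that far below. The gap was -3.89 for Tyrobp, -3.81 for Cd36, -3.45 for Fcer1g, -3.32 for Fcgr3 and -3.29 for Lyz2. Another 13 members differed by less than 1, with gaps of -0.07 for Lgmn, 0.41 for Ctsb, -0.55 for Cd14, -0.61 for Tlr4 and -0.68 for Ctsl. The same array therefore held Lgmn at 10.43 and Ctsb at 12.53 beside Tyrobp at 5.50 and Cd36 at 4.55. Mesothelial and stromal markers averaged 9.51 on replicate 1, against 9.53 and 9.37 on replicates 2 and 3. What set replicate 1 apart was not tested. Without it, 29 of the 32 members were called lower with antigen, and without replicate 2 or 3 the count stayed at 20 or above. The submitters' sample IDs fall into runs of consecutive numbers, which are not stated to be batches. Within the 2 runs that hold both groups, the mean over the members differed by -1.56 and -3.49 (antigen minus no antigen).

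**Figure D2:**
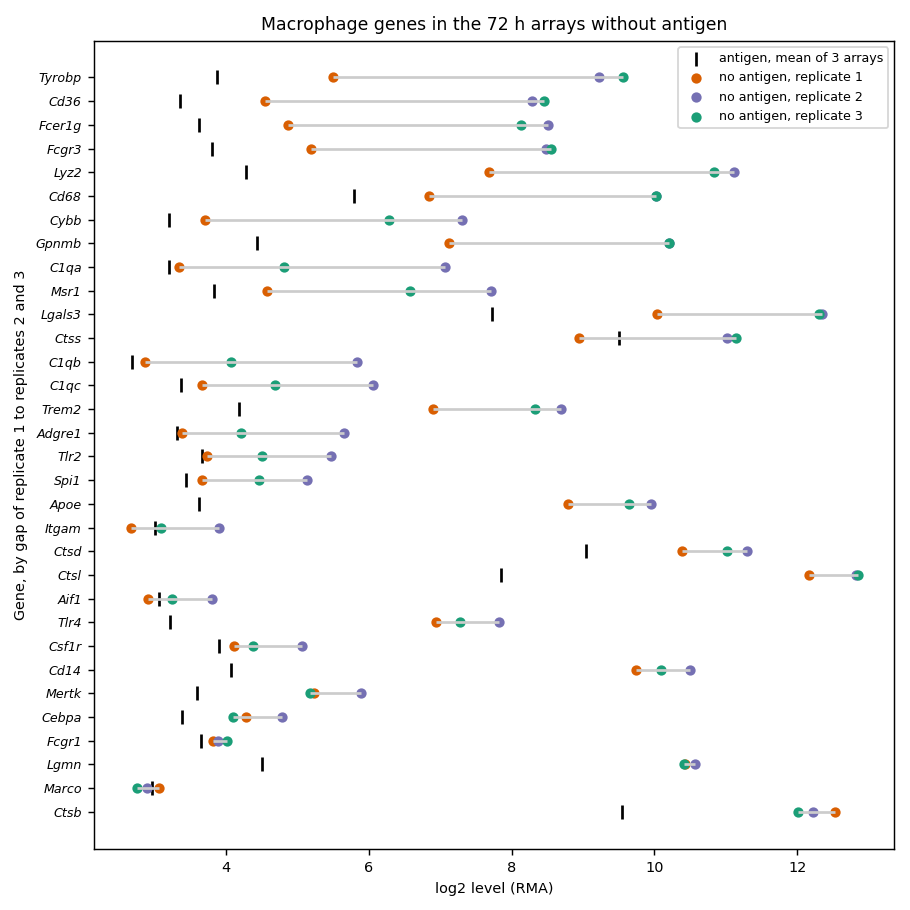
Level of 32 macrophage genes (rows) on the 3 no-antigen arrays at 72 h (coloured points) and their mean on the 3 antigen arrays (black ticks), in log2 RMA units. Genes are ordered by the gap of replicate 1 (orange) to the other two, which is -3.89 for Tyrobp at the top; replicate 1 stands with the others for Lgmn and Ctsb and near the antigen mean for C1qa and Cybb.

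IL-4, 1 of the 2 cytokines of the pretreatment, drives alternative activation. With pretreated macrophages, 2 of the 32 members were called higher in the T cell sort at 72 h, and 0 lower. The background over all genes was 3.78% higher and 5.91% lower, so the count of 2 is near the share over all genes. Ctsl had 11.03, 8.72 and 9.94 on the pretreated arrays, against 7.86, 7.90 and 7.79 with antigen alone (2.05, SE 0.44, adjusted p = 0.0161, limma). Cd14 had 7.20, 5.03 and 5.91 on pretreated macrophages, against 3.63, 4.43 and 4.14 (1.98, SE 0.46, adjusted p = 0.0222, limma). Both groups were fully separate for these genes, and replicate 1 was the highest pretreated array for each. Without pretreated replicate 3 or antigen replicate 3 neither gene was called, although both changes stayed between 2.02 and 2.05. Without antigen replicate 1 Cd14 lost its call (1.76), and with only the compared groups in the fit both genes did.

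Lyz2, Lgals3 and Apoe lay above the antigen arrays on every pretreated array but were not called. For Apoe the gap was small (3.73 at the lowest, against 3.67). The share of all genes that separate in this way was not counted. The changes of Lyz2, Lgals3 and Apoe were 1.91 (adjusted p = 0.191), 1.21 (adjusted p = 0.188) and 0.69 (adjusted p = 0.234, limma). Lgmn was 6.71 on pretreated replicate 1, against 4.49 and 5.01 on the other two and between 4.47 and 4.52 with antigen alone. Csf1r (-0.01) and C1qa (0.08) showed no call, with adjusted p of 0.991 and 0.964 (limma). The median change of the members was 0.20, and the mean over them was 5.06, 4.67 and 4.95 on the pretreated arrays, against 4.49, 4.46 and 4.43 with antigen alone. Mesothelial and stromal markers averaged 5.82 on pretreated replicate 1, against 4.35 and 4.59 on replicates 2 and 3 and between 4.05 and 4.36 with antigen alone. Of these 18 markers 1 rose (Dcn, 3.11) and 1 fell (Acta2, -1.72). Their part in the result was not tested.

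Set against the no-antigen arrays, pretreated cultures with antigen still had lower macrophage genes. Of 32 members 21 fell and 0 rose, beside 15.6% of all genes lower and 16.9% higher. The median change was -2.10. This comparison shares its control arrays with that of antigen alone, so the values are given only side by side. Cd14 changed by -4.06 here and by -6.04 with antigen alone, Ctsl by -2.71 and -4.76, Lyz2 by -3.68 and -5.59, and Apoe by -5.14 and -5.84. Lgmn changed by -5.07, Cd68 by -4.02, Trem2 by -3.74 and Tyrobp by -3.73. Lgals3 changed by -2.63. Csf1r (-0.63, adjusted p = 0.0732) and C1qa (-1.80, adjusted p = 0.0628, limma) were not called.

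At 48 h, on the other platform, antigen again came with lower macrophage genes in each amino acid poor medium. In low arginine 17 of 32 members fell and 0 rose, beside 12.2% of all genes lower and 17.2% higher. In low leucine 21 fell and 0 rose, beside 19.5% lower and 21.8% higher. In low lysine 20 fell and 0 rose, beside 12.6% lower and 18.4% higher. The median changes were -0.64, -0.84 and -0.61 in this order, where the median over all genes was -0.12, -0.13 and -0.09. The median level over genes differed by -0.185, -0.18 and -0.139 between the arrays compared, and the part of this shift in the members' changes was not tested.

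Lysosome genes fell in all media, with 6 of 6 called in each. Ctsl had 9.70, 9.27 and 9.07 with antigen in low arginine, against 11.26 and 11.21 without (-1.89, SE 0.26, adjusted p = 6.61e-06, limma). In low leucine it had 9.21, 8.63 and 8.76 with antigen, against 10.81, 10.96 and 11.14 without (-2.10, SE 0.23, adjusted p = 1.96e-07, limma). In low lysine Ctsl had 9.61, 9.22 and 8.98, against 10.77, 10.50 and 11.36 (-1.61, SE 0.23, adjusted p = 1.07e-05, limma). In no medium did the groups overlap. Cd68 changed by -1.87 in low arginine, -2.07 in low leucine and -1.65 in low lysine. The changes of Ctsb, Ctsd, Ctss and Lgmn lay between -1.53 and -0.98.

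Cd36 fell in every low medium. It had 7.73, 7.37 and 7.27 with antigen in low arginine, against 9.36 and 9.70 without, a change of -2.08. In low leucine the values of Cd36 were 7.53, 6.92 and 6.85 with antigen, against 9.85, 9.20 and 9.60 without, a change of -2.45. In low lysine they were 6.73, 8.20 and 6.51, against 8.50, 8.42 and 9.31, a change of -1.59. The second low lysine array with antigen was close to the lowest arrays without it. Apoe fell by 1.11, 1.20 and 1.04 in low arginine, leucine and lysine. Marco was called lower in low arginine (-0.47) and low lysine (-0.39). Its levels were 5.40 or less throughout, below every array's median over all probe sets. Msr1 was called lower in low arginine (-0.90) and low leucine (-1.62) and not in low lysine (-0.31, adjusted p = 0.371, limma).

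Tyrobp, Gpnmb, Lyz2 and Lgals3 fell in all media as well. Tyrobp had 8.80, 8.53 and 8.21 with antigen in low arginine, against 10.20 and 10.40 without. Its changes were -1.79, -1.75 and -1.52 in low arginine, leucine and lysine. Gpnmb changed by -1.73, -1.90 and -1.68, Lyz2 by -1.09, -1.77 and -1.04, and Lgals3 by -0.80, -1.10 and -1.11. Trem2 changed by -1.08, -1.15 and -1.12, and Cd14 by -0.75, -0.76 and -0.56. On this platform the level of Cd14 lay between 4.45 and 5.66 in these groups, below or near the array median.

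Lineage and complement genes changed less. Csf1r was called in low arginine (-0.55, adjusted p = 0.0209) and low leucine (-0.63, adjusted p = 0.00246) but not in low lysine (-0.40, adjusted p = 0.0535, limma). The low arginine call of Csf1r ended without either no-antigen array (-0.52 or -0.58) and without antigen replicate 1 (-0.42) or 2 (-0.53). It also ended with quantile normalization (-0.42) and on centred arrays (-0.36). In low arginine, Lyz2 lost its call without no-antigen replicate 2 (-1.03), and Lgals3 without no-antigen replicate 1 (-0.59) or antigen replicate 3 (-0.73), and on centred arrays (-0.61). C1qa had changes of -0.10, -0.07 and -0.27 with no call. In the complement group C1qb in low leucine was the only call (-0.51). Aif1, Fcgr1 and Tlr2 were called in none of the antigen comparisons at either time. Tlr4, which fell by 4.13 at 72 h, changed by 0.16, -0.24 and -0.07 at 48 h, uncalled.

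Cybb went the other way at 48 h. In low arginine it had 8.05, 7.93 and 7.53 with antigen, against 7.31 and 7.49 without, a change of 0.44 (adjusted p = 0.183, limma). The change was 0.38 in low leucine (adjusted p = 0.162) and 0.51 in low lysine (adjusted p = 0.0815, limma). None of these passed the test, but with each array centred on its median Cybb was called higher in low leucine and low lysine. Ncf1, which encodes a cytosolic part of the same oxidase and was picked after its values were seen, rose by 1.34, 1.15 and 0.77 in low arginine, leucine and lysine. Of 24 further phagocyte genes, more were called lower (5, 10 and 6 in this order) than higher (3, 4 and 2). Over all genes 12.2%, 19.5% and 12.6% were called lower and 17.2%, 21.8% and 18.4% higher.

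Within each low medium at 48 h, the mean of the members separated the antigen from the no-antigen arrays. It lay between 6.86 and 7.04 with antigen in low arginine, against 7.64 and 7.76 without. In low leucine it was between 6.60 and 7.04 with antigen, against 7.52 and 7.78 at the ends of the range without. In low lysine it was between 6.53 and 7.03 with antigen and between 7.40 and 7.82 without. Within ID runs that hold an array of both kinds, the mean was lower with antigen in each of 8 pairs, with differences between -1.151 and -0.615. The run A array had the highest mean in 5 of the 5 groups that have one. Mesothelial and stromal markers fell in 6, 11 and 3 of 18 cases in low arginine, leucine and lysine, beside 12.2%, 19.5% and 12.6% of all genes. The low lysine count, made up of Acta2, Upk3b and Wt1, is near the share over all genes. The mean of these markers lay between 5.16 and 5.46 with antigen in the low media and between 5.54 and 6.27 without. Of 12 T cell identity genes 7, 5 and 5 were called higher, beside 17.2%, 21.8% and 18.4% of all genes. Bcl11b fell in low leucine and low lysine. The 5 in low lysine were Cd2, Cd4, Cd5, Cd6 and Zap70, and in low leucine Cd28 stood in place of Cd4. The part of these in the result was not tested.

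**Figure D3:**
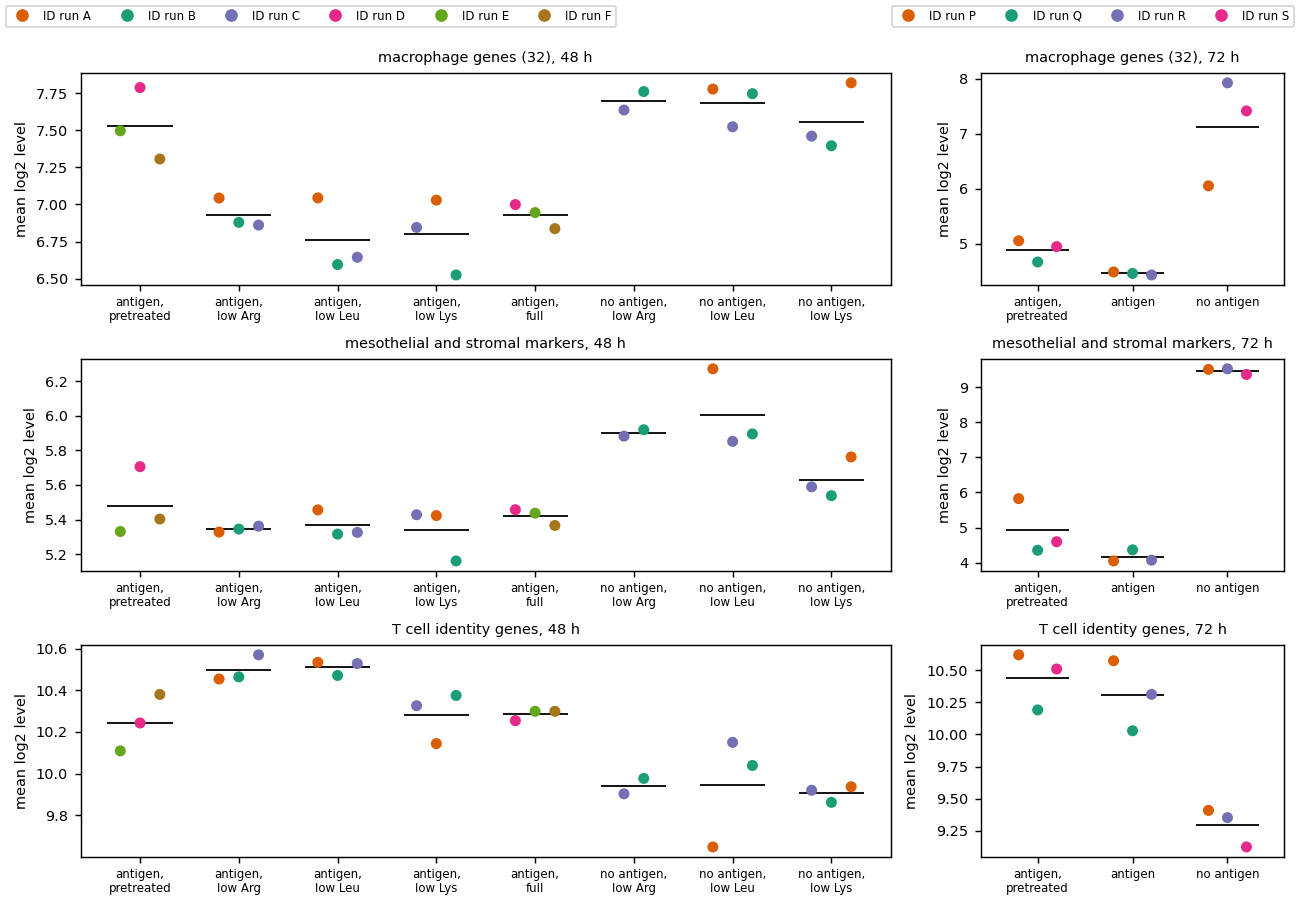
Mean log2 level on every array (points, coloured by run of consecutive sample IDs) and the group mean (bars) of 32 macrophage genes, of mesothelial and stromal markers and of T cell identity genes, at 48 h (left) and 72 h (right), each panel on its own axis. At 72 h macrophage and mesothelial means are higher without antigen than with it, and no-antigen replicate 1 is low (6.05) for macrophage genes and not (9.51) for mesothelial ones.

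The 4 comparisons of antigen with no antigen, 1 at 72 h and 3 at 48 h, used separate arrays. In all 4, 13 members were called lower: Tyrobp, Trem2, Cd14, Lyz2, Cd36, Apoe, Cd68, Ctsb, Ctsd, Ctsl, Lgmn, Lgals3 and Gpnmb. Of all genes, 17.4% were called lower at 72 h, and 12.2%, 19.5% and 12.6% in low arginine, leucine and lysine. The share of all genes called lower in all 4 was not counted, so how unusual the 13 are is not known. Called in 3 of the 4 were Spi1, Fcer1g, Msr1 and Ctss. Of the 6 lineage genes, none was called in all 4. The 72 h comparison was in full medium and the others in low amino acid media, and the platforms differ, so sizes were not compared between times.

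**Figure D4:**
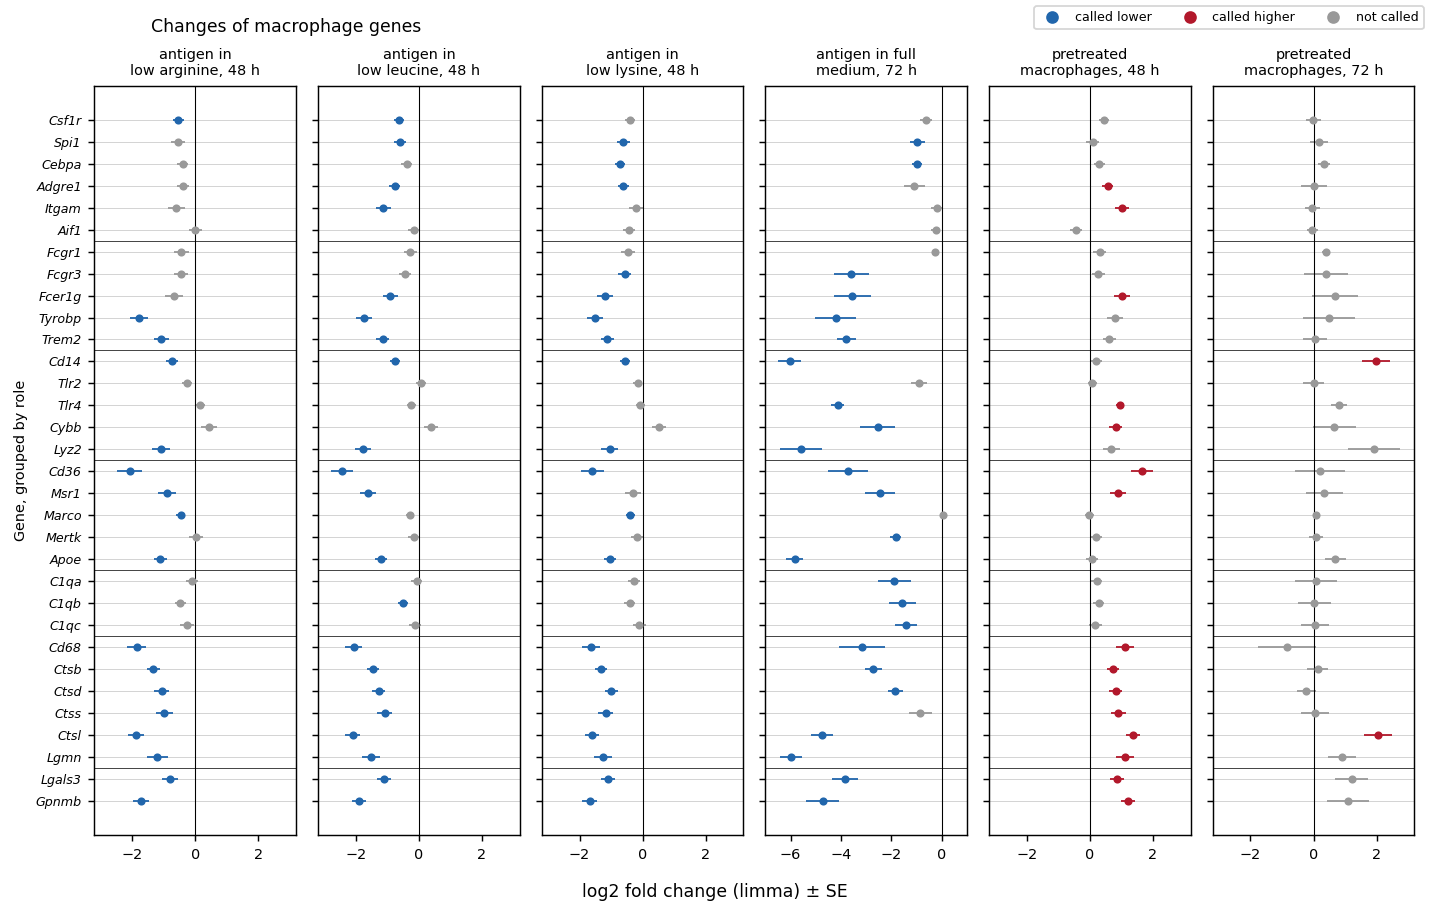
Log2 fold change (point) with its SE (bar) of 32 macrophage genes for antigen over no antigen (the 4 leftmost panels) and for pretreated over untreated macrophages with antigen (the 2 rightmost); the 72 h antigen panel has a wider axis. Calls (adjusted p under 0.05, limma) are blue where lower and red where higher. In all 4 antigen panels 13 genes are blue, a share that was not counted over all genes. At 48 h 15 are red for pretreated macrophages, beside 2.71% of all genes called higher.

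Pretreated macrophages with antigen gave higher macrophage genes in the T cell sort at 48 h, with 15 of 32 members called higher and 0 lower. The background over all genes was 2.71% higher and 5.93% lower. The members' median change was 0.65, against 0.01 over all genes. All 6 lysosome members rose and none of the 3 C1q genes was called. Cd36 had 9.31, 9.49 and 8.31 on pretreated macrophages, against 7.79, 7.33 and 7.04 on untreated ones, both with antigen in full medium (1.65, SE 0.35, adjusted p = 0.00413, limma). Ctsl had 10.82, 11.09 and 10.32, against 9.78, 9.34 and 9.0 (1.37, SE 0.23, adjusted p = 0.000597, limma). Gpnmb had 10.14, 10.58 and 9.81, against 9.15, 8.97 and 8.80 (1.20, SE 0.23, adjusted p = 0.00159, limma). For all 3 genes the groups were separate.

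Lgmn rose by 1.13, Cd68 by 1.11 and Itgam by 1.02 with pretreated macrophages. Lgals3 had 7.03, 7.74 and 7.21, against 6.60, 6.60 and 6.19 (0.86, adjusted p = 0.0156, limma). The other calls were Adgre1, Fcer1g, Tlr4, Cybb, Msr1, Ctsb, Ctsd and Ctss, with changes between 0.57 and 1.01. Tlr4 had the smallest adjusted p of them, 8.93e-05 (limma). Tyrobp (0.79, adjusted p = 0.0504), Lyz2 (0.68, adjusted p = 0.121), Csf1r (0.45, adjusted p = 0.0788), C1qa (0.21, adjusted p = 0.583) and Apoe (0.07, adjusted p = 0.900, limma) were not called. For Tyrobp, Lyz2 and Csf1r every pretreated array was above every untreated one, for Csf1r only just (5.82 at the lowest, against 5.78). The share of all genes that separate in this way was not counted.

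The pretreated arrays differed among themselves. Replicate 2 was the highest of the 3 for 27 of 32 members and replicate 3 the lowest for 20. Without pretreated replicate 2 the count of members called was 5, and Cd68 (0.94), Lgmn (1.01) and Lgals3 (0.66) lost their calls. Without antigen replicate 3 it was 8, and Lgals3 (0.73) was again not called. Without antigen replicate 2 it was 10, with Cd68 (1.08) and Lgmn (1.04) among the calls lost. Within the ID runs D, E and F the mean over the members was higher by 0.788, 0.551 and 0.469. Alternatively activated macrophage markers rose in 4 of 9 cases, Chil3 (4.94), Retnla (3.54), Arg1 (1.84) and Mrc1 (1.23). Mesothelial and stromal markers averaged between 5.33 and 5.71 on pretreated arrays and between 5.37 and 5.46 on untreated ones, with the highest on pretreated replicate 2, and Pdgfra was the 1 call (0.57). T cell identity genes averaged between 10.11 and 10.38, against 10.25 to 10.30.

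**Figure D5:**
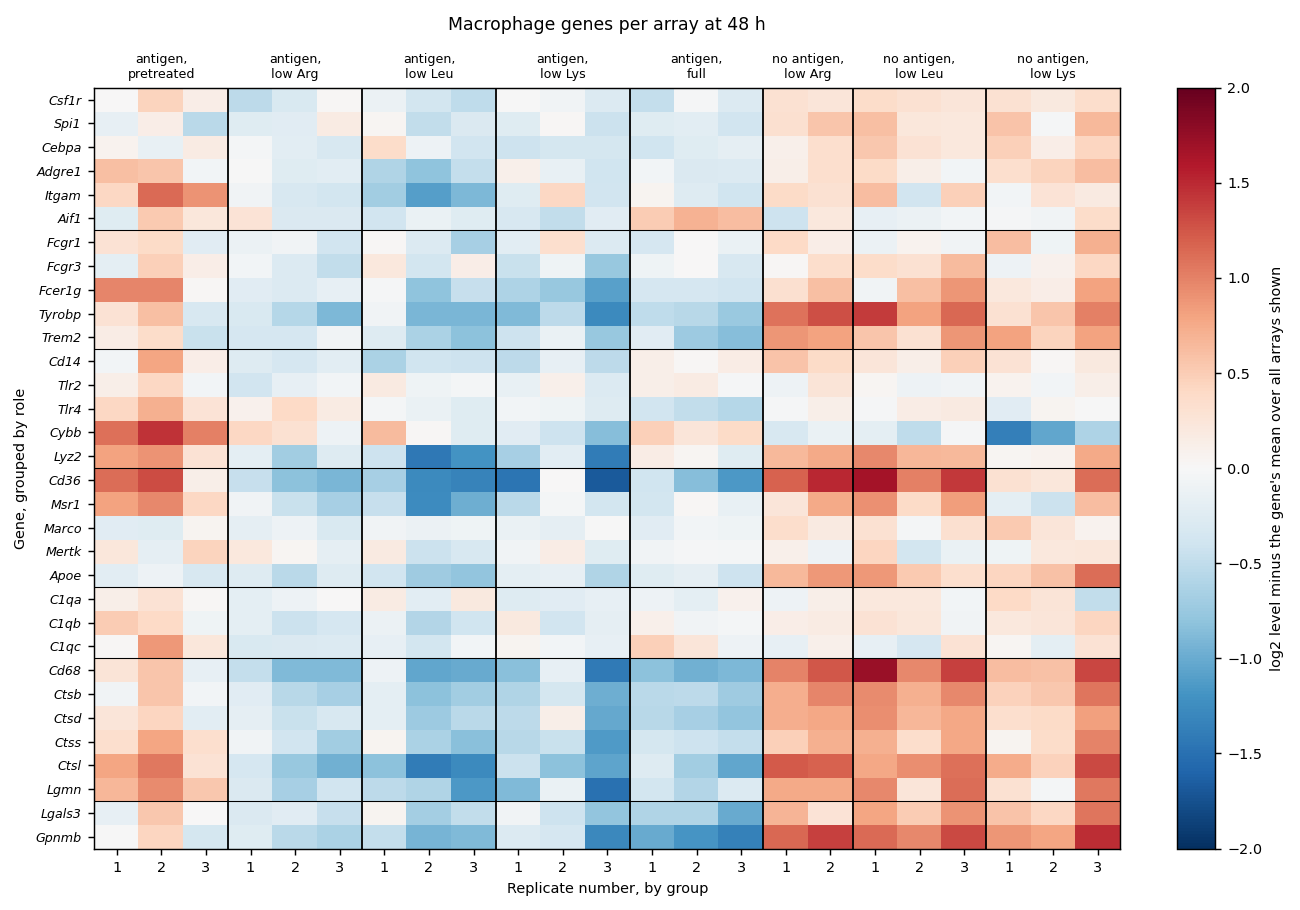
Level of 32 macrophage genes (rows, grouped by role) on each of the 23 arrays at 48 h (columns, by group and replicate), as the log2 level minus the gene's mean over these arrays. Most lysosome genes are red on the no-antigen arrays and on pretreated replicates 1 and 2, and blue with antigen in low or full medium.

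Among cultures with antigen, calls in low amino acid medium relative to full medium were few, among macrophage genes as over all genes. In low arginine 1 of 32 members rose and 1 fell, beside 1.51% of all genes higher and 3.17% lower. In low leucine 0 rose and 2 fell, beside 1.15% higher and 1.56% lower. In low lysine 0 rose and 2 fell, beside 2.49% higher and 6.24% lower. Low and full media were in different ID runs (A to C and D to F), so medium and run cannot be told apart here.

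Aif1, a calcium-binding actin regulator of macrophages, was lower in each low medium. Its values were 5.70, 5.14 and 5.14 in low arginine, 5.05, 5.30 and 5.18 in low leucine and 5.11, 4.93 and 5.20 in low lysine, against 5.94, 6.12 and 6.04 in full medium. The changes were -0.71 (adjusted p = 0.0325), -0.86 (adjusted p = 0.0119) and -0.96 (adjusted p = 0.00317, limma), against a common set of full medium arrays. No low medium array reached a full medium one, but the first low arginine array came close. The remaining calls were a rise of Tlr4 in low arginine and falls of Lyz2 in low leucine and Cybb in low lysine.

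Tlr4 had 5.65, 5.96 and 5.74 in low arginine, against 5.19, 5.07 and 5.0 in full medium (0.70, adjusted p = 0.00254, limma). Lyz2 had 10.09, 9.08 and 9.32 in low leucine, against 10.65, 10.55 and 10.26 (-0.99, adjusted p = 0.0397, limma). Cybb had 7.41, 7.21 and 6.78 in low lysine, against 8.10, 7.87 and 8.02 (-0.86, adjusted p = 0.0159, limma). Leaving out any single full medium array ended the low leucine call of Lyz2 (-1.11 to -0.91) and the low arginine call of Aif1 (-0.76 to -0.67). Quantile normalization ended both calls too, at -1.02 for Lyz2 and -0.65 for Aif1. Aif1 in low arginine also lost it without low arginine replicate 2 (-0.61) or 3 (-0.62), and Lyz2 without low leucine replicate 2 (-0.78) or 3 (-0.91). Aif1 in low leucine lost it without full medium replicate 2 (-0.82) or 3 (-0.86) or low leucine replicate 1 (-0.80). The low lysine call of Cybb was lost without full medium replicate 1 (-0.81) or 3 (-0.85) or low lysine replicate 3 (-0.68), and with quantile normalization (-0.56). In low lysine 6 of 9 B cell markers were higher (Cd22, Cd79a, Cd79b, Cr2, Fcrla and Ms4a1), beside 2.49% of all genes. The mean of the B cell markers lay between 5.43 and 6.46 there, against 5.21 to 5.26 in full medium. The part of B cell RNA in the low lysine values was not tested.

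Csf1r, Lyz2, Apoe, C1qa, Lgals3 and Ctsl had no other call in a low medium against full medium. Lyz2 changed by -0.36 in low arginine and by -0.74 in low lysine (adjusted p = 0.0803, limma). In low arginine, leucine and lysine Csf1r changed by -0.02, -0.07 and 0.14, Apoe by -0.07, -0.35 and -0.04, and C1qa by -0.03, 0.12 and -0.15. Ctsl changed by -0.03, -0.51 and -0.10 in the same order, and Lgals3 by 0.41, 0.36 and 0.31, with adjusted p of 0.369 or above for both (limma). A missed threshold does not show equal levels.

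Differences between the low media were tested with limma's moderated F test. Of 32 members, 0 were called among the low media with antigen, beside 3.92% of all genes. With the ID run as a block, Cybb and Itgam were called, and with the filter on low values Itgam was. At an unadjusted p under 0.05 there were 4, Adgre1, Itgam, Tlr4 and Cybb, beside 16.9% of all genes. Itgam had the lowest adjusted p, 0.0794, with 5.89, 5.64 and 5.60 in low arginine, 5.26, 4.86 and 5.06 in low leucine and 5.72, 6.38 and 5.58 in low lysine. Without antigen 0 were called by the F test, beside 0.00902% of all genes, and Cybb and Msr1 had an unadjusted p under 0.05, beside 6.22%. For an antigen effect that differs between the media 0 were called by the F test, beside 0.149% of all genes. There, Itgam and Msr1 had an unadjusted p under 0.05, beside 8.93%, and the lowest adjusted p was 0.277, that of Msr1.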

How the data were processed

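Log2 levels per probe set were deposited by the authors, made by RMA (Affymetrix Expression Console 1.1, per the submitters' processing notes), from 100 ng of RNA on MoGene-2_0-st (23 arrays, 48 h) or HT_MG-430_PM (9 arrays, 72 h). Which arrays were normalized together is not given in the sources used here, and the number of arrays limits the precision.

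A gene was represented by its brightest probe set among those naming 1 gene in the annotation of its platform. The 72 h platform has 45037 probe sets, with 1 gene for 28898, several for 551 and no gene for 15588. For the 41345 of the 48 h platform these were 23521, 1814 and 16010. Groups of a platform were fitted together with limma 3.58.1 in R 4.3.3 (lmFit, eBayes with trend), two-sided, with Benjamini-Hochberg over all genes in each of 10 comparisons and 3 F tests. The code was tested on simulated data. Tables and plots used Python 3.11.15, pandas 2.3.3 and matplotlib 3.10.9.

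The members and lists were chosen with earlier results of these data known. Named genes were the called members with up to the 6 largest rises and 6 largest falls in a comparison, and always Csf1r, Lyz2, Apoe, C1qa, Lgals3 and Ctsl. Role group members are described beside them.

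Titles number the replicates. Over the 5000 brightest genes, deviations of same-numbered arrays correlated above 0.1 in every pair only for pretreated macrophages at 72 h (0.162 to 0.263, 3 pairs). There a fit with the number as a block called 2 members, as without it. The alternatives were quantile normalization, median centring, the mean of a gene's probe sets, a filter on low values, blocks for replicate number and ID run, fits of the compared groups only, and leaving out each array.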

Additional observations from a re-analysis of the deposited data

Results flagged for a closer look

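Cybb, the catalytic subunit of the phagocyte NADPH oxidase, differed in the sign of its change with antigen between 48 h and 72 h. At 72 h in full medium every antigen array was below every no-antigen array, with a log2 fold change of -2.55. At 48 h in low arginine every antigen array was above both no-antigen arrays, but only just (7.53 at the lowest, against 7.49), with a change of 0.44. The groups overlapped in low leucine (7.39 to 8.27 with antigen, 7.12 to 7.61 without) and in low lysine (6.78 to 7.41 with antigen, 6.27 to 7.02 without). The difference between the 72 h and 48 h effects was not tested, since the platforms and media differ and no 48 h change passed the test by itself. Without antigen at 72 h replicate 1 held Cybb at 3.71, against 7.31 and 6.28 on the other arrays.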

How the results depend on the processing

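Among settings that kept all arrays, the number of the 32 members called moved by more than 1.5 times in few, and the cause was not tested. It also moved that far when some single arrays were left out, for pretreated macrophages and for low against full medium. Pretreated macrophages at 72 h gave 2 calls, and 1 with the ID run as a block. Low arginine against full medium gave 2, 1 after quantile normalization and 4 with the compared groups only. Low leucine gave 2, 1 and 5 in these settings, and low lysine 2, but 4 on centred arrays. Differences among low media with antigen gave 0, but 1 (Itgam) after the filter on low values and 2 (Cybb and Itgam) with the ID run block. Leaving out each array in turn gave 20 to 29 calls for antigen at 72 h, 0 to 4 for pretreated macrophages and 17 to 29 for these against no antigen. At 48 h it gave 5 to 17 for pretreated macrophages, 1 to 2, 0 to 1 and 1 to 3 for low arginine, leucine and lysine against full medium, and 13 to 16, 19 to 22 and 17 to 20 for antigen in these media. It gave 0 to 1 among the low media with antigen, and 0 for the other F tests. Outside pretreated macrophages at 72 h, same-numbered arrays did not correlate above 0.1 in every pair. Some of them share an ID run, and replicates 1 of the pretreated and no-antigen groups at 72 h correlated at 0.472. With the replicate block the counts were 27 for antigen at 72 h (24 without it), 27 for pretreated macrophages against no antigen (21), 16 for pretreated macrophages at 48 h (15), 17, 21 and 21 for antigen in low arginine, leucine and lysine (17, 21 and 20), 2 for each low medium against full medium, and 0 for the F tests.

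Of 60 called values of named members, 47 kept their call in every alternative run, and 0 reversed. C1qa with antigen at 72 h lost its call without any single array other than no-antigen replicate 1 (-2.75 to -0.89 over all). Values that turned sign were all uncalled and near 0. Leaving out single arrays moved pretreated Csf1r at 72 h to between -0.168 and 0.092 and C1qa to between -0.005 and 0.163, and the ID run block put Csf1r at 0.068. In low against full arginine it moved Csf1r to between -0.166 and 0.116, Apoe to between -0.137 and 0.022, C1qa to between -0.092 and 0.054 and Ctsl to between -0.214 and 0.175. Quantile normalization put Apoe at 0.018, C1qa at 0.060 and Ctsl at 0.040 there. In low leucine it moved Csf1r to between -0.176 and 0.043. In low lysine Apoe lay between -0.124 and 0.097 and Ctsl between -0.291 and 0.098, and quantile normalization gave 0.137 for Apoe, 0.014 for C1qa and 0.090 for Ctsl. The antigen effect on C1qa lay between -0.221 and 0.013 in low arginine and between -0.161 and 0.060 in low leucine, and on centred arrays at 0.081 and 0.107.

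Over all genes, antigen at 72 h called 3545 higher and 2982 lower, but 11019 and 1800 on centred arrays, and pretreated macrophages against no antigen 2892 and 2665, but 10433 and 1762. Centring also moved the split for antigen in low arginine (3812 and 2705, but 4804 and 985), low leucine (4830 and 4335, but 5921 and 1881) and low lysine (4086 and 2798, but 4834 and 1287). Quantile normalization gave 3049 and 3159 in low lysine, and 450 and 473 for low arginine against full medium (334 and 702 without it). With the compared groups only, the calls numbered 1009 for pretreated macrophages at 72 h (1656 otherwise), and 2472, 1654 and 968 for low arginine, leucine and lysine against full medium (1036, 603 and 1936), the last 1234 after quantile normalization. Without single arrays these 4 ranged over 495 to 2225, 577 to 710, 339 to 401 and 903 to 3183, antigen in low arginine over 3857 to 5543 (6517), pretreated macrophages at 48 h over 1148 to 2111 (1916), and the F tests over 437 to 1537 (870), 0 to 10 (2) and 8 to 218 (33). The ID run block could not be fitted for low against full medium, and fits of the compared groups only do not apply to the F tests. The filter kept 21 of 32 members at 72 h and 28 at 48 h, and the others had no group mean above its level of 4.89 or 5.71.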
